A study of Mus musculus with 6 samples.

Results

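Eph receptors and their ephrin ligands were followed through 9 genes, chosen by symbol: the A-type receptor genes Epha1, Epha2 and Epha4, the B-type receptor genes Ephb2, Ephb3 and Ephb4, the A-type ligand gene Efna1 and the B-type ligand genes Efnb1 and Efnb2. A feature, the set of probes that gives 1 value per transcript on the array, was taken as a member where its annotated symbol was exactly 1 of these. This gave 8 features, 1 per gene, of the 34760 on the array. Ephb2 matched none and has no value here. The 9 genes were chosen with earlier results of these arrays known, among them the changes of Epha2 and Epha4, so the differences of the members are a description. Where a member is said to have passed or missed a threshold, that records what the fit gave and is no independent support, and no p-value of a member is printed.

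Transcripts were measured on 6 single-colour arrays of C57Bl/6 mouse embryonic stem cells (ESCs). All 6 samples, controls included, stably expressed the chimeric receptor GRgp-Y118F, and the labels do not say whether the line was 1 clone. As background, such a receptor lets granulocyte colony-stimulating factor (GCSF) drive the signalling part of gp130, through which leukaemia inhibitory factor (LIF) activates STAT3, and the Y118F change removes the tyrosine that links gp130 to SHP2 and ERK. There were 2 untreated control arrays, 2 arrays of cells given GCSF for 1 h, and 2 arrays of cells given LIF for 1 h with 1 uM PD0325901, an inhibitor of the ERK-activating kinase MEK (labelled LIF/PD). The treated cells had been without serum for 6 h. No source used here says whether the controls were too.

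Eph receptors form the largest family of receptor tyrosine kinases. Their ephrin ligands are themselves held at the cell surface, A-type ephrins by a lipid anchor and B-type ephrins by a transmembrane segment, so that signalling needs contact between cells and can run forward into the receptor-bearing cell and in reverse into the ligand-bearing one. The system is known for cell repulsion, sorting and boundary formation, and EphA2 is known as an abundant receptor of ESCs and, in several cell types, as a gene whose transcript depends on ERK signalling.

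The DNA just upstream of the 2 members that changed most is shown first, because these genes moved in opposite directions in the same arrays. The sequences come from RefSeq on GRCm38.p6, read 5′ to 3′ towards the gene. They lie at chr4:141300971-141301220 on the plus strand for Epha2 (250 bases) and at chr1:77515108-77515338 on the minus strand for Epha4 (231 bases, after 19 bases inside the annotated gene were left off). Capitals mark a match to a motif searched for.
Epha2: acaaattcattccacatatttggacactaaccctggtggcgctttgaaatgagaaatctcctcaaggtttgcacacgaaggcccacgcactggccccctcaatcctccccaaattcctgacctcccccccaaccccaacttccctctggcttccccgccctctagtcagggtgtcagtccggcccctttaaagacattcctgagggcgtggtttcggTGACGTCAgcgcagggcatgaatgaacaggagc
Epha4: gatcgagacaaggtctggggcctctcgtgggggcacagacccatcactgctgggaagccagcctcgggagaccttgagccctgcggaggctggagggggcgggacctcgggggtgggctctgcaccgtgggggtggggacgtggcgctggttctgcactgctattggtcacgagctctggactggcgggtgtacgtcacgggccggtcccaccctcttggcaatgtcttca
Motifs were searched on both strands of the 250 bases before the start: TTCNNNGAA, bound by STAT factors, CCGGAAGT and CCGGAAAT, bound by ETS factors, TGANTCA, bound by AP-1, GCGGGGGCG, bound by EGR factors, and CACGTG, an E-box. Neither Epha2 nor Epha4 held any of these 6 strings. The capitals in Epha2 are TGACGTCA, the cyclic AMP response element, 33 to 26 bases before the start. That motif was added after the sequence had been read. It occurs in 1.55% of 32851 such windows. Among the other 7 members, with 8 windows in all, the only match was the EGR string on the reverse strand of Epha1, 29 to 21 bases before the start. This match lies inside the annotated Epha1 gene, whose span reaches beyond that start, while the match in Epha2 lies outside its gene. The EGR string occurs in 2.57% of windows. The STAT string occurs in 7.02%, the ETS strings in 2.88% and 0.654%, the AP-1 string in 6.75% and the E-box in 6.02%. A match describes the letters only.

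The arrays resembled each other closely, with Pearson correlations over the tested features of 0.997 to 0.998 within groups and 0.995 to 0.998 between them. The medians of the arrays over all 34760 features lay between 7.11 and 7.16. Without the 6573 features left out as controls they lay between 7.26 and 7.28. Features were tested where their mean log2 intensity was at least 6.70, which kept 16912. A feature is called where the Benjamini-Hochberg adjusted p of limma over these features was under 0.05. Errors are standard errors from that fit (SE, n = 2 arrays per group). The embryonic stem cell markers were present, and 10 of 10 passed the filter. Of 7 feeder fibroblast markers 6 passed it too. Averaged over the fibroblast list, log2 intensity was 9.44 and 9.48 for the controls, 9.46 and 9.48 under the label GCSF and 9.43 and 9.45 under LIF/PD. These means cover shifts in both directions. Of the 6 tested, both GCSF arrays lay above both controls for 3 and below both for 3. Col3a1 differed by 0.29 and Thy1 by -0.10. Over all tested features 41.8% had no overlap in that comparison. In such bulk RNA, fewer cells of a type and less RNA per cell cannot be told apart.

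The labels need a caution that bears on the treatment to which every difference given here is ascribed. Dusp6 and Spry4, transcripts that ERK signalling maintains, went down under the label GCSF, where Spry4 fell by 1.83 ± 0.06 log2 and Dusp6 fell by 1.56 ± 0.04. Under the label LIF/PD, where a MEK inhibitor should lower them, they lay 0.05 ± 0.06 and 0.03 ± 0.04 from control. Socs3, a STAT3 target, has 2 features. The one with the larger differences was called higher under both labels (3.13 ± 0.07 under GCSF and 2.62 ± 0.07 under LIF/PD), and the other was called under GCSF (0.51 ± 0.08) but not under LIF/PD (0.39 ± 0.08). Whether the 2 treated labels were exchanged was not tested. An exchange would leave each direction against control as it is but ascribe it to the other treatment. It would also reverse the sign of LIF/PD minus GCSF. The groups are kept as labelled, so GCSF and LIF/PD name the labels of the arrays throughout.

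Among the A-type receptors, Epha2 was lower in the arrays labelled GCSF than in both other groups. Its log2 intensity was 9.49 and 9.61 in the controls, 8.91 and 8.90 under GCSF and 9.47 and 9.52 under LIF/PD. Both GCSF arrays lay below all 4 others, and the control and LIF/PD arrays overlapped. Epha2 fell by 0.64 ± 0.05 log2 against control, 1.56-fold (95% interval -0.77 to -0.52), and was called. The size of this difference was at or above that of 99.7% of tested features. Under LIF/PD it lay -0.05 ± 0.05 from control (interval -0.17 to 0.07) and was not called, so a change larger than 0.17 log2 lies outside the interval. LIF/PD minus GCSF was 0.59 ± 0.05, a level 1.51-fold higher under LIF/PD, and was called. This comparison shares the GCSF arrays with the first. Epha2 was called in both under all 14 alternative settings, each array left out in turn included.

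Epha4, a receptor known for axon guidance and able to bind both ligand types, moved the other way. It read 8.77 and 8.76 in the controls, 9.05 and 9.09 under GCSF and 8.88 and 8.88 under LIF/PD. The groups did not overlap, with LIF/PD between control and GCSF. Epha4 rose by 0.30 ± 0.05 log2 under GCSF, 1.23-fold (interval 0.20 to 0.41). Under LIF/PD it lay 0.12 ± 0.05 above control (interval 0.01 to 0.22) and was not called. LIF/PD minus GCSF was -0.19 ± 0.05 (interval -0.29 to -0.08) and was not called either. The Epha4 call rests on the full set of arrays: it was lost whichever of the 6 arrays was left out and with only the compared groups in the fit. The difference itself stayed between 0.28 and 0.32 over the 14 settings.

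Epha1, the first Eph receptor described, read 7.48 and 7.62 in the controls, 7.44 and 7.49 under GCSF and 7.46 and 7.46 under LIF/PD. The control and GCSF arrays overlapped, and both LIF/PD arrays lay below both controls. It differed from control by -0.08 ± 0.07 under GCSF and by -0.09 ± 0.07 under LIF/PD, and neither was called.

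**Figure D1:**
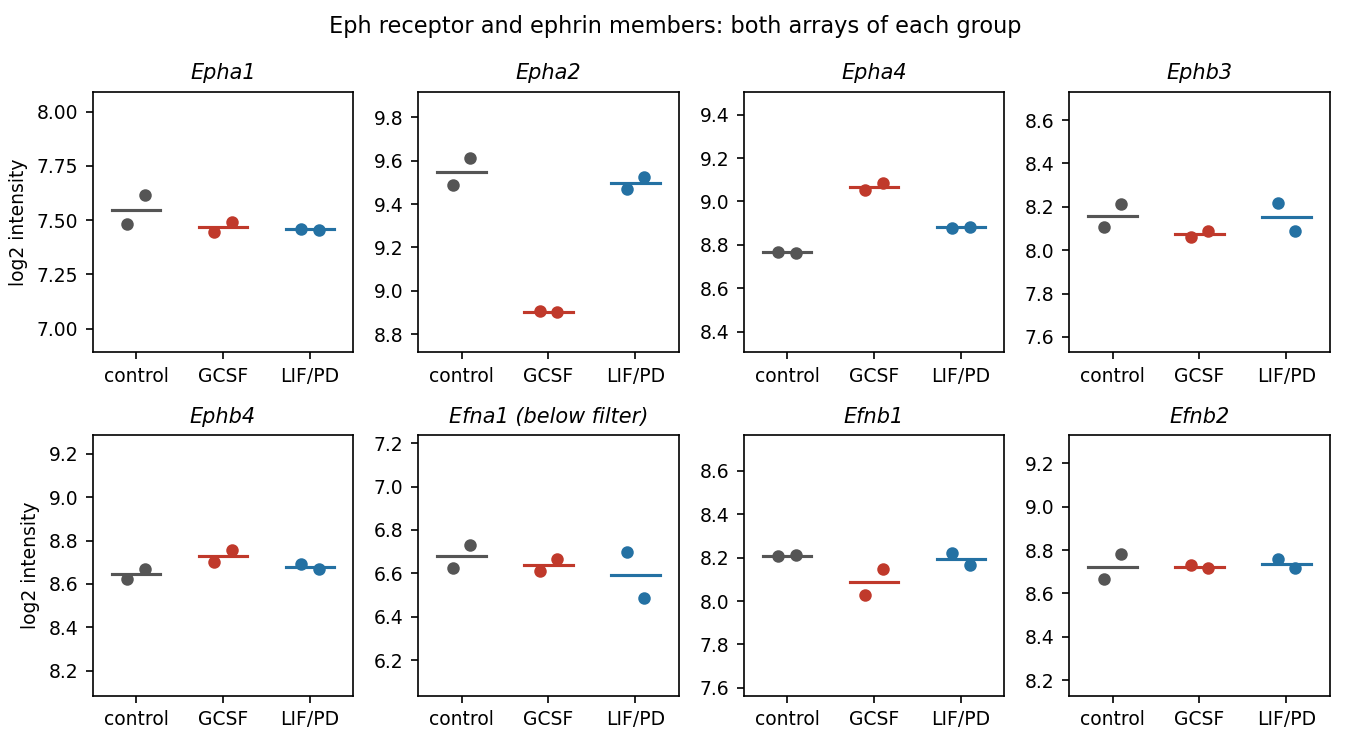
Log2 intensity (y axis) of the 8 member features in both arrays (points) of the control, GCSF and LIF/PD groups, with the group mean as a line. Every panel spans the same height in log2 units, centred on the mean of its feature. The Epha2 arrays labelled GCSF sit at 8.91 and 8.90, below the other 4, and the Epha4 arrays labelled GCSF at 9.05 and 9.09, above the other 4.

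The B-type receptors showed no called change. Ephb3, which acts in the positioning of epithelial cells along the gut crypt, read 8.11 and 8.21 in the controls, 8.06 and 8.09 under GCSF and 8.22 and 8.09 under LIF/PD. Its GCSF arrays lay just below the controls, and its LIF/PD arrays overlapped both other groups. The difference was -0.08 ± 0.07 under GCSF and -0.01 ± 0.07 under LIF/PD. Ephb4, the receptor of ephrin-B2 on venous endothelium, read 8.62 and 8.67 in the controls, 8.70 and 8.75 under GCSF and 8.69 and 8.67 under LIF/PD. Its GCSF arrays lay above both controls, by 0.08 ± 0.05 on average (interval -0.04 to 0.20), and its LIF/PD difference from control was 0.03 ± 0.05.

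Of the ligand genes, Efna1, which encodes the main ligand of EphA2, lay just below the filter at a mean of 6.64 and so has no call. It read 6.62 and 6.73 in the controls, 6.61 and 6.67 under GCSF and 6.70 and 6.48 under LIF/PD, and all 3 groups overlapped. The gap between its LIF/PD arrays, 0.21, was wider than either of its differences from control (-0.04 ± 0.10 and -0.09 ± 0.10, from the fit without the filter).

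Efnb1, an X-linked ligand gene with a role in cell sorting, read 8.21 and 8.21 in the controls, 8.03 and 8.15 under GCSF and 8.22 and 8.17 under LIF/PD. The GCSF arrays lay below all others, by 0.12 on average against control (-0.12 ± 0.06, interval -0.27 to 0.02), and LIF/PD minus GCSF was 0.11 ± 0.06. Neither was called. Efnb2, the ligand that marks arterial endothelium, read 8.67 and 8.78 in the controls, 8.73 and 8.72 under GCSF and 8.76 and 8.72 under LIF/PD. Its GCSF and LIF/PD arrays all lay between the 2 controls. The differences from control were 0.00 ± 0.06 under GCSF and 0.01 ± 0.06 under LIF/PD, with intervals of -0.13 to 0.13 and -0.11 to 0.14. The arterial and venous pair Efnb2 and Ephb4 was read in arrays where the endothelial genes Cdh5, Kdr and Tie1 were below the filter, while Tek and Vwf passed it. No endothelial marker was called in any of the 3 comparisons (0 of 2 tested by limma, 0 at an unadjusted p under 0.05). Over all tested features 1.17% (GCSF minus control), 0.065% (LIF/PD minus control) and 0.846% (LIF/PD minus GCSF) were called. An unadjusted p under 0.05 by limma was reached by 12.1%, 6.59% and 11.8% of all in the same order. With 2 features tested, nothing is read from this.

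In the comparison of GCSF with control, 1 of the 7 tested members was thus called higher and 1 lower. Over all tested features 1.17% were called, 0.804% higher and 0.367% lower. An unadjusted p under 0.05 was reached by 2 of the 7, and by 12.1% of all. Since the members were chosen with this comparison in view, nothing is read from these shares. The median difference of the 7 was -0.08, against 0.01 over all tested features. The arrays did not overlap for 5 of the 7, against 41.8% of all tested features. The 5 members not called had differences from -0.12 to 0.08, and their intervals stayed within -0.27 and 0.20. A change of more than 1.20-fold in any of these 5 lies outside its interval.

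Under LIF/PD, 0 of the 7 was called against control by limma, with 0.065% of all tested features called. At an unadjusted p under 0.05 there was 1, Epha4, where 6.59% of all features were. The differences ran from -0.09 to 0.12 with a median of -0.01, against a median of 0.01 over all features, and the widest interval bound corresponds to 1.19-fold. The arrays of 2 members, Epha1 and Epha4, did not overlap with the controls, against 38.4% of all features. Both comparisons share the 2 control arrays. Between LIF/PD and GCSF, 1 member was higher and 0 lower, with 0.846% of all features called, 0.402% higher and 0.443% lower. An unadjusted p under 0.05 was reached by 2 of 7, against 11.8% of all features, and 4 of 7 did not overlap, against 41.5% of all.

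**Figure D2:**
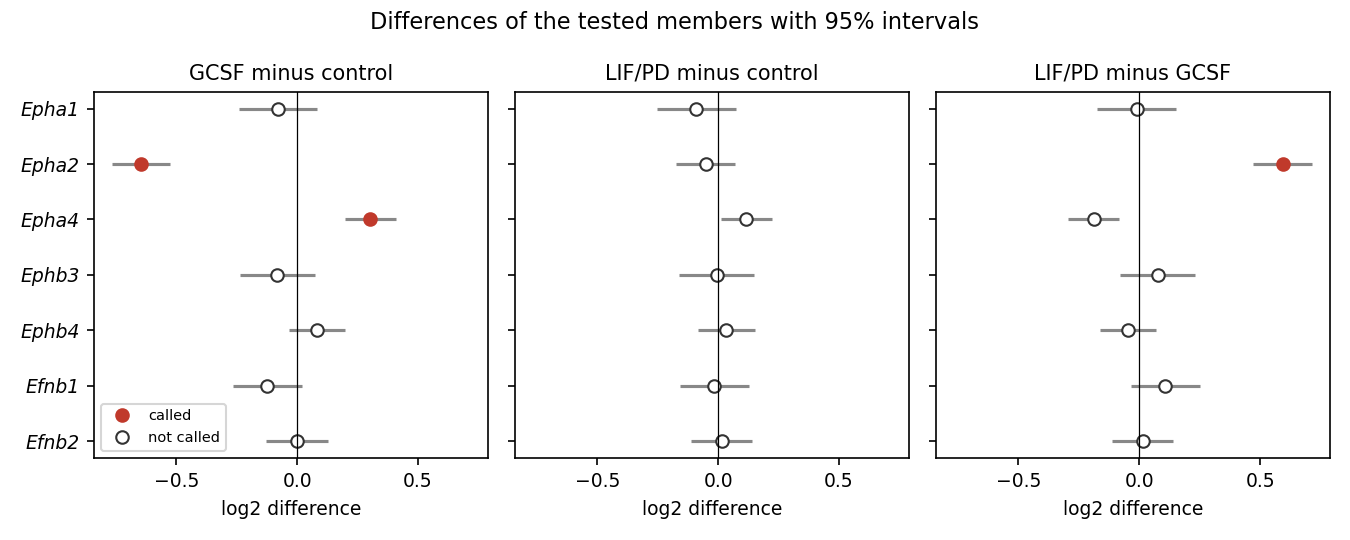
Log2 differences (x axis) of the 7 tested members in the 3 comparisons, with 95% intervals from limma as bars and filled points where the feature was called. Filled points are Epha2 (-0.64) and Epha4 (0.30) in GCSF minus control and Epha2 (0.59) in LIF/PD minus GCSF, and the remaining points lie between -0.19 and 0.12.

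The features most like these 2 receptors across the 6 arrays were found by the root mean square difference of log2 values after the mean of each feature was taken off, among 14029 tested features with 1 symbol. They were picked for likeness, so their own differences are descriptions. For Epha2 the nearest was Dusp4, which encodes an ERK phosphatase, at a distance of 0.057. It read 8.45 and 8.51 in the controls, 7.97 and 7.89 under GCSF and 8.53 and 8.51 under LIF/PD, which again sets the GCSF arrays apart from the other 4. Next came features carrying the symbols Gm10244 (0.075), Mir674 (0.078), Stk17b (0.084) and Mir100hg (0.093). No level of a mature microRNA is read from the features named Mir674 and Mir100hg. Stk17b, a kinase gene of the death-associated family, read 9.55 and 9.52, then 9.11 and 8.98, then 9.54 and 9.57 in the same order of groups.

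For Epha4 the nearest was Tdgf1, the gene of the Nodal co-receptor Cripto, at 0.015. It read 12.56 and 12.54 in the controls, 12.86 and 12.85 under GCSF and 12.68 and 12.68 under LIF/PD. Like Epha4 it had its LIF/PD arrays between the other groups. Slc41a1, a magnesium transporter gene (0.017), the growth factor gene Fgf4 (0.019), the adaptor gene Skap2 (0.021) and Amotl2, a gene of the angiomotin family (0.021), followed.

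**Figure D3:**
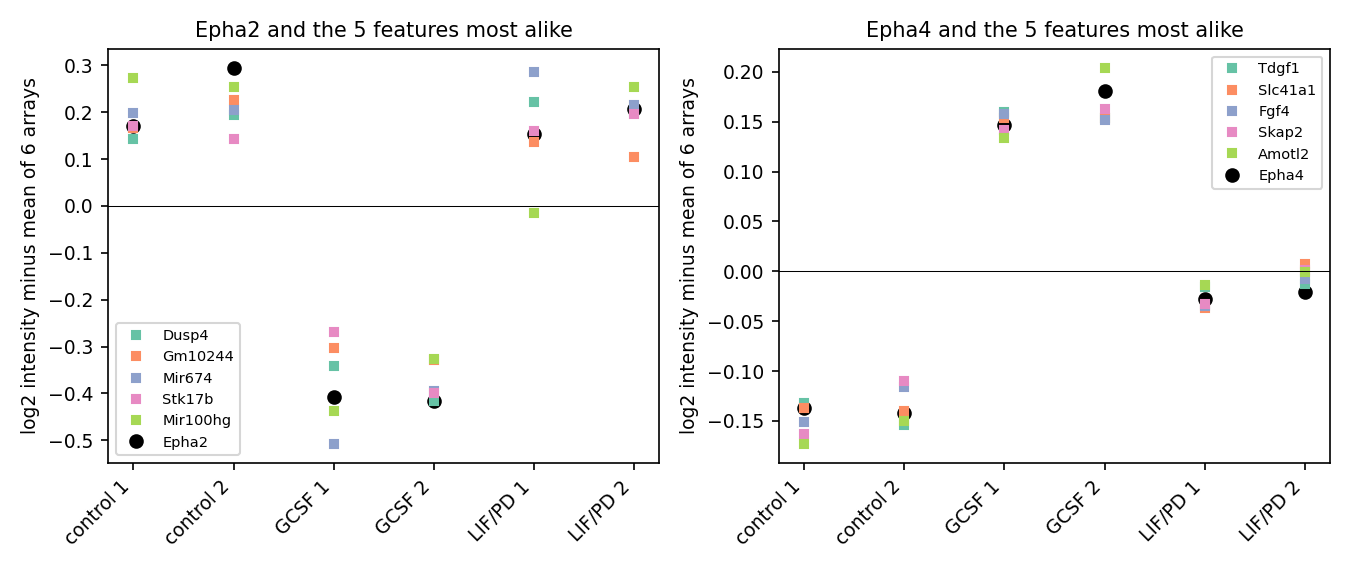
Log2 intensity minus the mean of the 6 arrays (y axis) for each array (x axis), for Epha2 (left, black circles) and Epha4 (right, black circles) and the 5 features nearest to each (coloured squares). On the left all 6 features are lowest in both GCSF arrays, and on the right all 6 are highest there with LIF/PD between control and GCSF.

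The rest of the family comprised 13 further Eph and ephrin genes, which are no members. They had 15 features, of which 10 were tested. Those of Epha3, Epha5, Epha6 and Ephb1 (2 features) lay below the filter. The tested genes were the receptors Epha7, Epha8, Epha10 (2 features) and Ephb6, which lacks kinase activity, and the ligands Efna2, Efna3, Efna4, Efna5 and Efnb3. None was called in any of the 3 comparisons by limma, and 0 had an unadjusted p under 0.05 in any of them. Over all tested features 1.17% (GCSF minus control), 0.065% (LIF/PD minus control) and 0.846% (LIF/PD minus GCSF) were called. An unadjusted p under 0.05 by limma was reached by 12.1%, 6.59% and 11.8% of all in the same order. Beside these shares, 0 of 10 does not set the rest of the family apart. The smallest adjusted p of the 10 features was 0.611 for GCSF against control, 0.764 for LIF/PD against control and 0.606 between the treatments. Their median difference was 0.00 under GCSF and 0.02 under LIF/PD. The largest in size were -0.11 ± 0.07 for a feature of Epha10 under GCSF and 0.17 ± 0.08 for Efnb3, a ligand of the midline, under LIF/PD. Efnb3 read 7.29 and 7.33 in the controls, 7.29 and 7.43 under GCSF and 7.42 and 7.54 under LIF/PD, so both LIF/PD arrays lay above the controls and overlapped those labelled GCSF. The 10 intervals under GCSF lay within -0.28 and 0.24, which leaves changes beyond 1.21-fold outside them.

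Genes that act with Eph receptors were taken from a list of 54, in which 50 had a feature and 55 features were tested. The list holds 36 genes of forward signalling (among them adaptors, Src family kinases and regulators of actin), 7 of reverse signalling and 11 of shedding and turnover. Under GCSF 1 of the 55 features was called higher and 0 lower, beside 0.804% and 0.367% of all tested features, and 6 had an unadjusted p under 0.05, as had 12.1% of all. The list's median difference was 0.00. The 1 called was Yes1, which encodes a Src family kinase. Yes1 read 9.02 and 9.19 in the controls, 9.82 and 9.59 under GCSF and 9.31 and 9.23 under LIF/PD, with no overlap between groups. It rose by 0.60 ± 0.08 under GCSF (adjusted p = 0.011 with limma). That call was lost without control replicate 1 (0.52, adjusted p = 0.112), without GCSF replicate 1 (0.48, adjusted p = 0.0514) and without an intensity trend in the variances (adjusted p = 0.0504).

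Under LIF/PD 0 of these 55 features was called by limma against control, beside 0.065% of all tested features. An unadjusted p under 0.05 was reached by 2 of them, against 6.59% of all. The 3 smallest p-values by limma belonged to the adaptor gene Crk (0.12 ± 0.04, adjusted p = 0.653), Anks1 (-0.14 ± 0.05, adjusted p = 0.719) and a feature of the phosphatase gene Acp1 (-0.27 ± 0.12, adjusted p = 0.752). The Anks1 protein binds EphA receptors. The control arrays of this Acp1 feature lay 0.42 apart. The other tested features of Acp1 had the opposite sign, at 0.01 ± 0.06, 0.07 ± 0.08 and 0.07 ± 0.05. Between LIF/PD and GCSF 0 of the 55 features was called by limma, beside 0.846% of all, and 4 had an unadjusted p under 0.05, against 11.8% of all. The smallest p-values by limma there belonged to Yes1 (-0.44 ± 0.08, adjusted p = 0.0604), the first-named feature of Acp1 (-0.32 ± 0.12, adjusted p = 0.339) and the adaptor gene Grb7 (0.10 ± 0.04, adjusted p = 0.37). The other tested features of Acp1 again had the opposite sign, at 0.14 ± 0.06, 0.12 ± 0.08 and 0.04 ± 0.05. Yes1 was called in this comparison in 2 of 14 alternative settings, with features of a gene averaged (adjusted p = 0.0455) and without GCSF replicate 2 (adjusted p = 0.0407). By role, the 33 tested features of forward signalling held the only call, and the 8 of reverse signalling and 14 of shedding and turnover held 0 in each comparison (limma; at most 2 had an unadjusted p under 0.05).

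**Figure D4:**
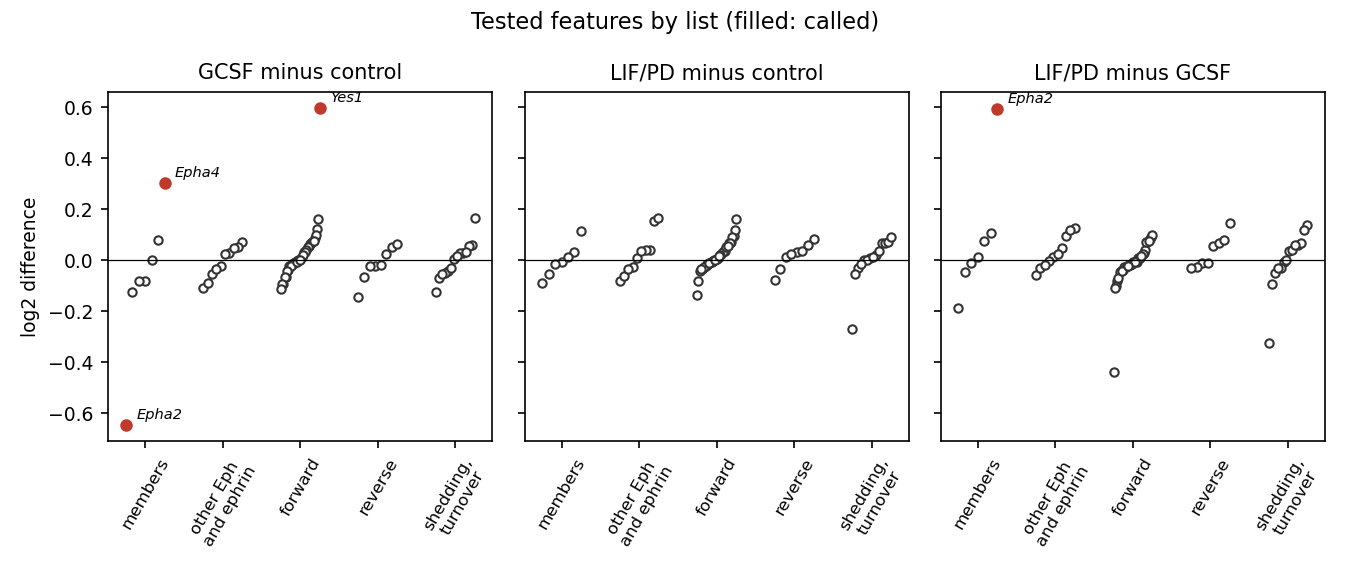
Log2 differences (y axis) of all tested features in 5 lists (x axis: the members, the other Eph and ephrin genes, and the genes of forward signalling, reverse signalling, and shedding and turnover), ordered by value within a list and filled where called. Epha2 (-0.64), Epha4 (0.30) and Yes1 (0.60) are the filled points in GCSF minus control, and Epha2 (0.59) is the 1 in LIF/PD minus GCSF.

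Some markers of cell identity moved in the same comparisons as Epha2 and Epha4. Under GCSF 3 of 10 stem cell markers were called higher, Klf4 (0.92), Tdgf1 (0.30) and Fbxo15 (0.35), with 0 lower. Of the tested fibroblast markers 1 of 6 was called higher, Col3a1 (0.29), and of the neuroectoderm markers 1 of 3, Pax6 (0.54). Over all tested features 0.804% were called higher and 0.367% lower in this comparison. As the marker lists were chosen with earlier results known, nothing is read from these shares. The mean log2 intensity of the stem cell list was 11.44 and 11.48 in the controls, 11.61 and 11.63 under GCSF and 11.52 and 11.56 under LIF/PD. The median difference of its 10 genes under GCSF was 0.07, well below that of Klf4, and Utf1 (-0.16), Dppa5a (-0.06) and Pou5f1 (-0.04) had negative values. The mean log2 intensity of the neuroectoderm list was 7.51 and 7.56, then 7.59 and 7.66, then 7.62 and 7.63 in the same order of groups. Apart from Pax6 its genes had negative differences under GCSF, Sox1 -0.06, Nes -0.03 and Zic1, below the filter, -0.10. Between LIF/PD and GCSF, where Epha2 was also called, 1 of the 10 stem cell markers was called higher, Utf1 (0.23), and 2 lower, Klf4 (-0.62) and Tdgf1 (-0.17). Over all tested features 0.402% were called higher and 0.443% lower there. Under GCSF, markers of primitive endoderm (4 tested), trophoblast (4), mesoderm and primitive streak (2) and endothelium (2) had 0 calls by limma. Of these, 2 trophoblast markers and 0 of the others had an unadjusted p under 0.05, against 12.1% of all tested features. What part any of the markers had in the receptor differences was not tested.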

How the data were processed

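RNA extracted with TRIzol was biotin labelled at a core facility, per the labels' protocols. The authors deposited 1 table of values for 34760 features on 6 arrays. The deposited values lie between 2.29 and 14.50 and were read as log2 intensities made by the authors with a background correction, summarization and normalization that the labels do not name. The log base is not stated either. The values were used without further scaling. Symbols came from the platform annotation, and only features with 1 symbol were named. The 6573 features with identifiers below the first annotated one were treated as controls and left out. Of the other 28187, those at or above the 40th percentile of mean log2 value, 6.70, were tested (16912).

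Group means were fitted to all 6 arrays with limma 3.58.1 in R 4.3.3, with an intensity trend in the variances (3 residual and 8.4 total degrees of freedom), and two-sided p-values were Benjamini-Hochberg adjusted over the 16912. The fit was tested on simulated data with 200 changed features, in 10 runs of the comparison of GCSF with control. It called 20.1% of changes of 0.25 log2, 79.3% of those of 0.6 and 91.5% of those of 1. Of its calls 2.29% were false. Most changes of 0.25 log2 were thus missed, so a small difference that is not called does not show that there is no change. No label states whether replicate arrays stem from separate cultures. The p-values therefore cover the spread between arrays alone, and that spread may be technical. There is no read depth, and 2 arrays per group limit the precision.

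The members, lists and rules were chosen with earlier results of these data known. Named were all members, all other Eph and ephrin genes, called pathway genes or else the 3 with the smallest p, Socs3, Dusp6 and Spry4 as label checks, and the 5 features nearest in profile to the member with the largest fall and to that with the largest rise under GCSF. Of the 54 pathway genes, 4 had no feature. Marker lists covered stem cells, feeder fibroblasts, primitive endoderm, trophoblast, mesoderm, neuroectoderm and endothelium. Alternatives were a replicate block, no filter and a 60th percentile filter, quantile normalization, median centring, no intensity trend, only the compared groups, averaged features, and each array left out. Where 1 array of a group remained, it was assumed to vary like the other groups.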

Additional observations from a re-analysis of the deposited data

How the results depend on the processing

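The Epha2 calls held under every alternative run (GCSF minus control -0.71 to -0.58, LIF/PD minus GCSF 0.57 to 0.62), and no member was called in LIF/PD minus control. With any 1 array left out, members called numbered 1 for GCSF minus control, in place of 2, and 0 and 1 in the other comparisons. With only the compared groups it was also 1, and 83 features were called between LIF/PD and GCSF in place of 143. Without an intensity trend all calls numbered 125, 1 and 71 (GCSF minus control, LIF/PD minus control, LIF/PD minus GCSF) in place of 198, 11 and 143, and pathway calls under GCSF 0. With features of a gene averaged, 1 pathway gene was called between the treatments. Leaving out 1 array gave 88 to 164, 1 to 9 and 31 to 91 calls in all, and 0 to 1 pathway calls under GCSF and between the treatments. Fewer arrays also cost power.

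Differences near 0 changed sign, all without a call. Efnb2 was -0.0217 under GCSF and -0.0154 under LIF/PD with quantile normalization, and Ephb3 was 0.0016 under LIF/PD with median centring. With 1 array left out, Efnb2 ran from -0.0572 to 0.0574 under GCSF, -0.0431 to 0.0715 under LIF/PD and -0.0050 to 0.0332 between them. Against control under LIF/PD, Epha2 ran from -0.114 to 0.0102, Ephb3 from -0.0679 to 0.0578 and Efnb1 from -0.0420 to 0.0105. Epha1 ran from -0.0348 to 0.0143 between the treatments.

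Between arrays of the same replicate number, deviations from the group means correlated weakly (0.0071, 0.084 and 0.099). These values cannot show whether such arrays were handled together. With the replicate number as a block, 195, 9 and 165 features were called, with 2, 0 and 1 members among them, and Epha2 was -0.64 and Epha4 0.30 under GCSF.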
